A study of Rattus norvegicus with 12 samples.

Results

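The genes described here are 10 receptors for neuropeptides in cortical neurons: Npy1r, Npy2r and Npy5r for neuropeptide Y, Sstr1, Sstr2, Sstr3 and Sstr4 for somatostatin, Cckbr for cholecystokinin, Tacr1 for substance P and Crhr1 for corticotropin-releasing hormone. They were chosen by name, as the rows of the 12-library expression table that carry those symbols, and all 10 of 10 were found among its 17339 gene symbols. Of these, 9 passed a minimum of 10 read equivalents in at least 3 libraries, as 12073 genes did, and Npy5r did not. A read equivalent is the base coverage added by 1 read of 42 nt, and every level below is given in this unit, divided by the size factor that the authors applied.

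Neuropeptides are released from dense-core vesicles, mostly by interneurons in the cortex, and act on receptors that couple to G proteins. The neuropeptide Y receptors and the somatostatin receptors couple to Gi/o proteins, which lower cyclic AMP and open GIRK potassium channels, and so dampen firing. The cholecystokinin B and neurokinin 1 receptors couple mainly to Gq and phospholipase C, and the CRH receptor 1 mainly to Gs and adenylyl cyclase, and these are generally excitatory. Expression of several cortical neuropeptides, neuropeptide Y and somatostatin among them, is known to depend on neuronal activity.

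The RNA came from cortical neurons of Wistar rats, taken at embryonic day 18 and grown as primary cultures. There were 4 groups of 3 libraries: Ehmt1 knockdown with tetrodotoxin (TTX), Ehmt1 knockdown untreated, wild-type with TTX and wild-type untreated. TTX blocks voltage-gated sodium channels and stops action potentials, and the sources used here give no dose or duration. The knockdown used a short hairpin RNA against Ehmt1, a histone H3 lysine 9 methyltransferase, and since no title names a control hairpin, what the hairpin or its delivery did cannot be told apart from the loss of Ehmt1. The numbers 1 to 3 in the titles paired the TTX and the untreated library within a genotype, judged by how the libraries deviated from their group means, and such a pair is called a culture here. The labels do not state this pairing.

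Ehmt1 itself had 1187, 1519 and 1162 read equivalents in knockdown with TTX and 1044, 1535 and 1037 in knockdown untreated, against 2039, 1739 and 1839 in wild-type with TTX and 1772, 1586 and 1599 in wild-type untreated. The knockdown libraries were all lower, and those of culture 2 lay nearest to wild-type. Neuron markers were present in all libraries, with 7 markers summing to 53632 to 114085 read equivalents. Markers of other cells were present too: 8 astrocyte markers summed to 96663 to 180159 and 7 markers of progenitors and cycling cells to 9955 to 19214, while 7 microglia markers summed to 10 to 144. In such bulk RNA, fewer cells of a type and less RNA per cell cannot be told apart.

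Before the values, the upstream regions of 5 receptors are shown, because these genes gave the clearest differences with TTX (Crhr1, Npy1r, Sstr1 and Npy2r) or hold the full cyclic AMP response element (Sstr2). Each is the RefSeq promoter window on GRCr8, 250 bases before to 50 after the start, read along the gene. Capitals mark matches on either strand to the full element TGACGTCA, to its core CGTCA, which also lies inside every full element, or to the GC box GGGCGG. The windows are chr10:89539942-89540241 on the plus strand for Crhr1, chr16:27813338-27813637 on the minus strand for Npy1r, chr6:81567233-81567532 on the plus strand for Sstr1, chr2:170203051-170203350 on the minus strand for Npy2r and chr10:99163103-99163402 on the plus strand for Sstr2.
Crhr1: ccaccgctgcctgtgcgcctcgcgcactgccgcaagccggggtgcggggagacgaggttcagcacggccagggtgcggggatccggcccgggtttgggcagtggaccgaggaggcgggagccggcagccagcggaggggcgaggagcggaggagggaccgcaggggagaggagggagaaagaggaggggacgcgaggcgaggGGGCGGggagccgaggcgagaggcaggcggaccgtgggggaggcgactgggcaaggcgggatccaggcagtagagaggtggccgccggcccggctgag
Npy1r: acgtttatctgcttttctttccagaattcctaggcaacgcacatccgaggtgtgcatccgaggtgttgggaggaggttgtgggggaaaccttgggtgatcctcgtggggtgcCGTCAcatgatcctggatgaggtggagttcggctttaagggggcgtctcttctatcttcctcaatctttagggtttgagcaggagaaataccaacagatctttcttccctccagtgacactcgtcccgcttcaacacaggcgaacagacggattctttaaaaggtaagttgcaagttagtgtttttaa
Sstr1: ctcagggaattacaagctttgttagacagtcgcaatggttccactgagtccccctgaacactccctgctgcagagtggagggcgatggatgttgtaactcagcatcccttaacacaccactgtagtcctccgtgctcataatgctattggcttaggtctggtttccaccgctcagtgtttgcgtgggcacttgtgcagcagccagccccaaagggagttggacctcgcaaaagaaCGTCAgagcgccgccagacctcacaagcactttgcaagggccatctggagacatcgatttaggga
Npy2r: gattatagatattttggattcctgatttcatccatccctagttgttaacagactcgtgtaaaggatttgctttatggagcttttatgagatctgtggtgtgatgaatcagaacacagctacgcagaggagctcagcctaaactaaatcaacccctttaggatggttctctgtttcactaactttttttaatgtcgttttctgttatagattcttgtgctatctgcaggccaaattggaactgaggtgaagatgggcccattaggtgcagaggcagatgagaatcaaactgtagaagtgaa
Sstr2: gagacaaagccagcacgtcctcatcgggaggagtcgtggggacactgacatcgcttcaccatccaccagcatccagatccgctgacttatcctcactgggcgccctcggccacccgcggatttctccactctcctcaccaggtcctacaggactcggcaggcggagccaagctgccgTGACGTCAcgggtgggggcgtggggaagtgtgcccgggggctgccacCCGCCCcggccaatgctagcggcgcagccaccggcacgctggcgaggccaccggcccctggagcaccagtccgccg

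The 10 receptor genes differed in these windows. The full element was found in Sstr2 alone among the 10, at -73 from the start, and in 1.91% of all 27457 promoters of the table. The core outside a full element was found in Npy1r at -138, in Sstr1 at -15 and in Tacr1 at -69, and 22% of all promoters held the core. The GC box occurred 3 times in Cckbr and 1 time in each of Crhr1, Sstr2 and Sstr3, against 34.9% of all promoters with at least 1. The GC content was 75.3% for the Crhr1 window shown, and a second RefSeq start of Crhr1 gave 74.3%. It was 49% for Npy1r, 53.7% for Sstr1 and 40% for Npy2r, with a median of 52.3% over all promoters. Npy1r and Npy5r are next to each other on chromosome 16 in this annotation. These matches describe letters in a window and say nothing about whether a factor binds.

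Crhr1 and Npy1r were lower with TTX in every culture. In a model with culture as a term, Crhr1 fell in knockdown and in wild-type cultures, and Npy1r fell in wild-type and over both genotypes. Sstr1 fell when both genotypes were averaged. Npy2r, at a very low level, was the only receptor called higher in that model, in wild-type and over both genotypes. Within wild-type only libraries with TTX reached the filter minimum for Npy2r, so the filter itself favoured a higher call.

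Crhr1, the main CRH receptor of the brain, had 201, 176 and 84.5 read equivalents in knockdown with TTX, against 357, 279 and 148 in knockdown untreated. It had 154, 118 and 111 in wild-type with TTX, against 271, 279 and 214 in wild-type untreated. Every culture was lower with TTX, with log2 changes of -0.83, -0.66 and -0.80 in the knockdown cultures and -0.81, -1.24 and -0.94 in the wild-type ones. The knockdown groups overlapped, with knockdown culture 3 low in both conditions, and the wild-type groups did not.

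By limma on the 4 groups alone, none of the 9 receptors tested passed in any comparison. In that fit 0 of 12073 genes (0.00%) were called for TTX in knockdown, 4 (0.0331%) in wild-type and 24 (0.199%) over both genotypes. At an unadjusted p under 0.05 it gave 2 receptors in knockdown (3.70% of genes), 4 in wild-type (5.65%) and 5 over both (9.87%). A fit with culture as a fixed term called 62 genes (0.514%) in knockdown, 384 (3.18%) in wild-type and 1570 (13.0%) over both, among them 1, 3 and 4 of the 9 receptors, and in neither fit did any gene (0.00%) pass for the difference between genotypes in the TTX change. Since the culture pairing changes the calls, both fits are given below. A random block for culture called 1, 4 and 7 receptors, with 2.89%, 6.05% and 16.7% of all genes called. These were Crhr1 in knockdown, Crhr1, Npy1r, Npy2r and Sstr1 in wild-type, and those 4 with Sstr3, Sstr4 and Cckbr over both.

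For Crhr1 the log2 change with TTX was -0.76 in knockdown (SE 0.10, adjusted p = 0.0418 with culture as a term, 1 for groups alone and 0.0295 to 1 over the 28 settings tried). In wild-type it was -1.0 (SE 0.10, adjusted p = 0.0192 with culture as a term, 0.776 for groups alone and 0.00575 to 1 over the 28). Over both genotypes it was -0.88 (SE 0.07), with an adjusted p of 0.00436 with culture as a term, 0.24 for groups alone and 0.00131 to 0.55 over the 27 settings tried. The difference between the 2 genotypes in this change was 0.23 (95% interval -0.10 to 0.56, adjusted p = 0.974 with culture as a term). The lowest adjusted p within each genotype came from a scale relative to neuron markers, given further below. With culture as a term, 8430 genes in knockdown and 9323 in wild-type passed on that scale.

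Npy1r encodes the Y1 receptor, the main postsynaptic receptor for neuropeptide Y in the cortex. It had 517, 454 and 200.2 read equivalents in knockdown with TTX, against 712, 585 and 382 in knockdown untreated. In wild-type it had 445, 277 and 276 with TTX, against 902, 558 and 479 untreated. All 6 cultures were lower with TTX, and only in wild-type were the groups free of overlap. The log2 change was -0.59 in knockdown (SE 0.12), which did not pass (adjusted p = 0.0848 with culture as a term, 1 for groups alone). In wild-type it was -0.94 (SE 0.12, adjusted p = 0.0255 with culture as a term, 0.871 for groups alone and 0.0161 to 1 over the 28 settings tried). The difference between genotypes in this change was 0.35 (95% interval -0.88 to 1.59 and adjusted p = 1 for groups alone, SE 0.17 and adjusted p = 0.974 with culture as a term). Over both genotypes the change was -0.76 (SE 0.09), with an adjusted p of 0.00802 with culture as a term, 0.38 for groups alone and 0.00384 to 0.765 over the 27 settings tried. The lowest wild-type adjusted p of Npy1r also came from the scale relative to neuron markers.

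The averaged calls of these genes with culture as a term did not hang on 1 culture: leaving out each of the 6 in turn gave adjusted p values of 0.01 to 0.0359 for Crhr1 and 0.0182 to 0.0426 for Npy1r. Within 1 genotype the adjusted p crossed the threshold in some of these fits, while the changes stayed close to those above: -0.81 to -0.73 for Crhr1 in knockdown, -1.09 to -0.88 for Crhr1 in wild-type and -1.01 to -0.90 for Npy1r in wild-type. The knockdown call of Crhr1 passed in the fit without wild-type culture 1 (0.0442) and in none of the other 5, where it went up to 0.292 without knockdown culture 1. Its wild-type call passed in the fits without wild-type culture 1 or 2 (0.0421 and 0.0491) and not in the other 4, up to 0.0644 without knockdown culture 1. The wild-type call of Npy1r passed in the fit without knockdown culture 3 (0.0425) and not in the other 5, up to 0.0883 without wild-type culture 3.

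**Figure D1:**
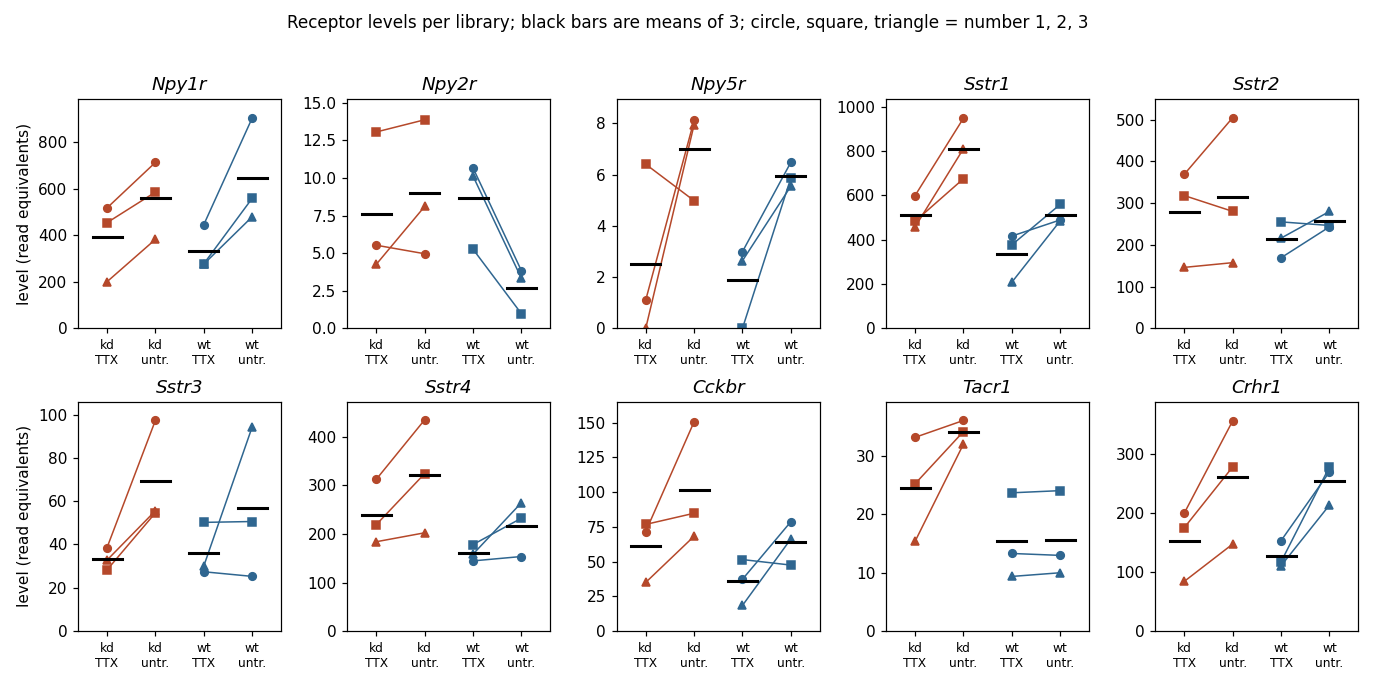
Level of each receptor in every library, in read equivalents on linear axes that start at 0, for knockdown with TTX, knockdown untreated, wild-type with TTX and wild-type untreated. Lines join the libraries of a culture, and all 6 lines of Crhr1, Npy1r, Sstr1 and Sstr4 are lower at the TTX end.

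The other neuropeptide Y receptors were near the detection limit. Npy2r encodes the Y2 receptor, which acts mainly on nerve terminals to limit transmitter release. It had 5.53, 13.1 and 4.27 read equivalents in knockdown with TTX and 4.96, 13.9 and 8.11 in knockdown untreated. In wild-type it had 10.7, 5.26 and 10.1 with TTX and 3.83, 0.977 and 3.33 untreated. The knockdown groups overlapped almost fully, while the 3 wild-type libraries with TTX were all higher than the 3 untreated ones. The log2(level + 1) change was -0.25 in knockdown (SE 0.18, adjusted p = 0.532 with culture as a term). In wild-type it was 1.43 (SE 0.18, adjusted p = 0.0251 with culture as a term, 0.734 for groups alone and 0.00308 to 1 over the 26 settings tried). Over both genotypes it was 0.59 (SE 0.13, adjusted p = 0.0351 with culture as a term, 0.631 for groups alone). The lowest wild-type adjusted p of Npy2r came from the scale relative to neuron markers.

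For Npy2r the difference between genotypes in the TTX change was -1.68 (SE 0.26 with culture as a term), with an unadjusted p of 0.000487 and an adjusted p of 0.682, so it failed the correction. Before size factors the knockdown value rests on 24 read equivalents with TTX against 29 untreated, a ratio of 0.912 (95% counting interval 0.508 to 1.62). In wild-type they were 24 against 8, a ratio of 3.14 (1.37 to 8.1). These intervals cover counting error only, and the wild-type one is wider than the SE of 0.18 for that change implies. Npy2r passed the filter through 4 libraries, 2 of them wild-type with TTX and 2 of knockdown culture 2. No wild-type untreated library exceeded 3.83, so within wild-type the filter selected on the difference that was tested. Without knockdown culture 2 Npy2r could not be tested. Without each of the other cultures its wild-type call, with culture as a term, had an adjusted p of 0.0347 to 0.095, passing in the fit without knockdown culture 3 alone, and its call over both genotypes 0.0312 to 0.11, passing in the same fit alone.

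Npy5r, which encodes the Y5 receptor known for its part in feeding, had 0 to 6.41 read equivalents in knockdown with TTX, against 4.99 to 8.12 in knockdown untreated, and 0 to 2.99 in wild-type with TTX, against 5.55 to 6.48 in wild-type untreated. It was lower with TTX in 5 of 6 cultures, and the wild-type groups did not overlap, at levels near the detection limit. Among the genes tested, which leave Npy5r out, 6.52% were lower without overlap in wild-type. Before size factors the counts were 8 with TTX against 23 untreated in knockdown, a ratio of 0.383 (95% counting interval 0.148 to 0.887), and 5 against 18 in wild-type, a ratio of 0.291 (0.0845 to 0.814). Both intervals pool the reads of 3 cultures and cover counting error only, not the spread between cultures. In knockdown culture 2 the log2(level + 1) change was 0.31. The gene was below the filter and was not tested. The 3 neuropeptide Y receptors differed in direction with TTX in wild-type: Npy1r and Npy5r were lower in 3 of 3 cultures (19.0% of genes tested) and Npy2r higher (22.2%).

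Of the 4 somatostatin receptors, Sstr1 was called over both genotypes, in the fit with culture as a term, and the other 3 were not. Sstr1 had 599, 483 and 457 read equivalents in knockdown with TTX, against 947, 675 and 810.0 in knockdown untreated, with no overlap. In wild-type it had 416, 376 and 208 with TTX, against 489, 559 and 485 untreated, again with no overlap. The log2 change was -0.66 in knockdown (SE 0.18, adjusted p = 0.135) and -0.67 in wild-type (SE 0.18, adjusted p = 0.103), each with culture as a term. With a random block for culture the adjusted p was 0.0605 in knockdown and 0.0367 in wild-type. Averaged over genotypes it was -0.66 (SE 0.13), with an adjusted p of 0.0254 with culture as a term, 0.191 for groups alone and 0.00444 to 0.475 over the 27 settings tried. With culture as a term and 1 culture left out, that call passed without wild-type culture 1 (0.0205) or 3 (0.0368) and not in the other 4 fits, up to 0.0963 without knockdown culture 1.

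Sstr2 encodes the receptor through which somatostatin is best known to open GIRK channels. It had 369, 318 and 146 read equivalents in knockdown with TTX, against 505, 280.2 and 158 in knockdown untreated, and 169, 255 and 216 in wild-type with TTX, against 243, 247 and 280.1 in wild-type untreated. Levels overlapped in both genotypes, and 4 of 6 cultures were lower with TTX. The averaged change was -0.20 (95% interval -0.86 to 0.46, adjusted p = 0.88 for groups alone, 0.259 with culture as a term). Its window, shown above, is the 1 with the full cyclic AMP response element.

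Sstr3, whose protein is known from neuronal primary cilia, had 38.5, 28.3 and 32.8 read equivalents in knockdown with TTX, against 97.3, 54.6 and 55.6 in knockdown untreated, with no overlap. In wild-type it had 27.4, 50.2 and 30.0 with TTX, against 25.3, 50.6 and 94.2 untreated. Only culture 3 of the wild-type was clearly lower there, and without it the wild-type change of -0.51 became 0.05. The averaged change of -0.75 (SE 0.24) missed the threshold with culture as a term (adjusted p = 0.0881) and for groups alone (0.44), and passed with a random block for culture (0.0335).

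Sstr4 had 313, 219 and 184 read equivalents in knockdown with TTX, against 436, 325 and 203 in knockdown untreated, and 145, 178 and 159 in wild-type with TTX, against 154, 233 and 265 in wild-type untreated. It was lower with TTX in every culture, with overlapping groups in both genotypes. The averaged change was -0.40 (SE 0.10), with an adjusted p of 0.0508 with culture as a term, 0.599 for groups alone and 0.0355, past the threshold, with a random block for culture. With culture as a term it also passed without wild-type culture 1 (-0.48, adjusted p = 0.0351).

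Cckbr encodes the cholecystokinin B receptor, the main cholecystokinin receptor of the cortex. It had 71.6, 76.7 and 35.0 read equivalents in knockdown with TTX, against 151, 84.7 and 68.2 in knockdown untreated, and 37.2, 51.4 and 18.4 in wild-type with TTX, against 78.6, 47.5 and 66.2 in wild-type untreated. Culture 2 of each genotype moved least, by -0.14 in knockdown and 0.11 in wild-type. The averaged change of -0.81 (SE 0.25) did not pass with culture as a term (adjusted p = 0.0858) or for groups alone (0.403), and passed with a random block for culture (0.0301). With culture as a term it also passed without wild-type culture 2 (-1.07, adjusted p = 0.0305).

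Tacr1, the substance P receptor, had 33.2, 25.2 and 15.4 read equivalents in knockdown with TTX, against 36.1, 34.2 and 32.0 in knockdown untreated, and 13.3, 23.7 and 9.35 in wild-type with TTX, against 13.0, 24.1 and 9.99 in wild-type untreated. In knockdown the change was -0.52 (SE 0.16, adjusted p = 0.167 with culture as a term). In wild-type the conditions were almost level in each culture, with a change of -0.02 (95% interval -0.87 to 0.82 for groups alone), and the difference between genotypes was -0.49 (SE 0.23, unadjusted p = 0.0706, adjusted p = 0.974).

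Crhr1, Npy1r, Sstr1 and Sstr4 were lower with TTX in 6 of 6 cultures, as 11.7% of all genes tested were. An exact two-sided sign-flip test over the 6 cultures gave p = 0.0312 for each of the 4, the smallest value that 6 cultures allow. Cckbr and Npy5r gave 0.0625, Sstr3 and Tacr1 0.0938, and Sstr2 and Npy2r 0.188, each by the same exact test. Among the receptors tested, groups without overlap were seen for Sstr1 and Sstr3 in knockdown (lower, as 4.56% of genes). In wild-type they were seen for Crhr1, Npy1r and Sstr1 (lower, as 6.52% of genes) and for Npy2r (higher, as 4.94%).

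**Figure D2:**
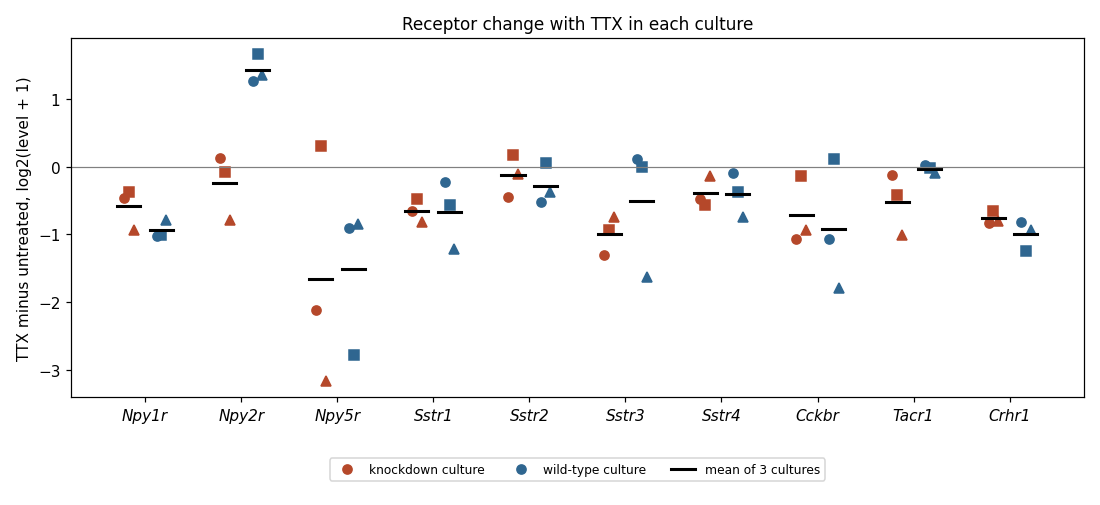
Change of each receptor with TTX in each of 3 knockdown and 3 wild-type cultures, as TTX minus untreated on the log2(level + 1) scale, with the mean of 3 as a black bar. Crhr1 lies between -1.24 and -0.66 in all 6 cultures, while Npy2r is at or below 0.13 in the knockdown cultures and at 1.27 or more in the wild-type ones.

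Of the 9 receptors that passed the filter, 8 were lower with TTX over both genotypes, with a median log2 change of -0.66, against a median of 0.02 and 44.5% lower among all genes tested. Among 28 other neuropeptide receptors that passed, of 56 listed, 13 were lower and the median was 0.07. Given culture as a term, Hcrtr2 (orexin receptor 2, change -1.02), Mchr1 (melanin-concentrating hormone receptor 1, -0.64) and Rxfp1 (relaxin receptor 1, -0.88) fell and Prlhr (prolactin-releasing hormone receptor, 1.24) rose, and groups alone called 0 of them. Thus 3 of the 28 fell and 1 rose, beside 7.54% and 5.47% of all genes tested in that fit. Prlhr was uneven: it had 270 read equivalents with TTX and 183 untreated in wild-type culture 3, and at most 20.2 in any library of the other cultures. Of the further receptors for the same peptides, Npy4r and Sstr5 had at most 4.89 and 0 read equivalents in any library, and Tacr2 and Crhr2 were below the filter. Cckar, the cholecystokinin A receptor, had 39.5, 16.0 and 41.2 read equivalents in knockdown with TTX, against 18.1, 16.7 and 30.4 in knockdown untreated, and 6.04, 18.1 and 9.03 in wild-type with TTX, against 11.8, 5.82 and 9.83 in wild-type untreated. Its averaged TTX change was 0.33 and that of Tacr3, the neurokinin 3 receptor, -0.17, and neither passed (adjusted p = 0.511 and 0.853 with culture as a term, 0.806 and 0.939 for groups alone).

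Neuron markers moved with TTX as well. Of 7, all were lower over both genotypes, with a median log2 change of -0.36, and Nefl, Snap25, Syt1, Stmn2 and Rbfox3 passed with culture as a term. Their sum was 58183 to 90173 read equivalents in knockdown with TTX, against 76600 to 114085 in knockdown untreated, and 53632 to 61367 in wild-type with TTX, against 69797 to 80672 in wild-type untreated. Of 11 GABAergic markers 8 were lower and 3 higher, and Gad1, Gad2, Reln, Slc32a1 and Vip fell in that fit. Of 7 glutamatergic markers 6 were lower and 1 higher, and Fezf2, Slc17a6 and Tbr1 fell. All 7 markers of progenitors and cycling cells were higher, and Ccnb1, Cdk1, Mki67 and Top2a rose. Of 8 oligodendrocyte lineage markers 6 were higher and 2 lower, and Olig1 rose. The 8 astrocyte markers had 7 higher and 1 lower, with a median of 0.16, and 0 of them passed. In that fit 7.54% of all genes tested fell and 5.47% rose, and groups alone called 0 of the markers in these lists. Expressed relative to the mean of the 7 neuron markers, a scale chosen after seeing the data, the averaged change was -0.44 for Crhr1 (SE 0.08), -0.32 for Npy1r (SE 0.09), -0.22 for Sstr1 (SE 0.11), 0.05 for Sstr4 (SE 0.09), 0.17 for Tacr1 (SE 0.11), 0.24 for Sstr2 (SE 0.10) and 1.04 for Npy2r (SE 0.13). Cckbr changed by -0.37 (SE 0.22) and Sstr3 by -0.31 (SE 0.21) on that scale. Crhr1 and Npy1r were lower with TTX there by more than 3 SE, while Sstr2, Sstr4 and Tacr1 turned positive. The scale shifts all genes, and 10431 of 12073 passed on it in the same fit, so passing does not set a receptor apart.

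**Figure D3:**
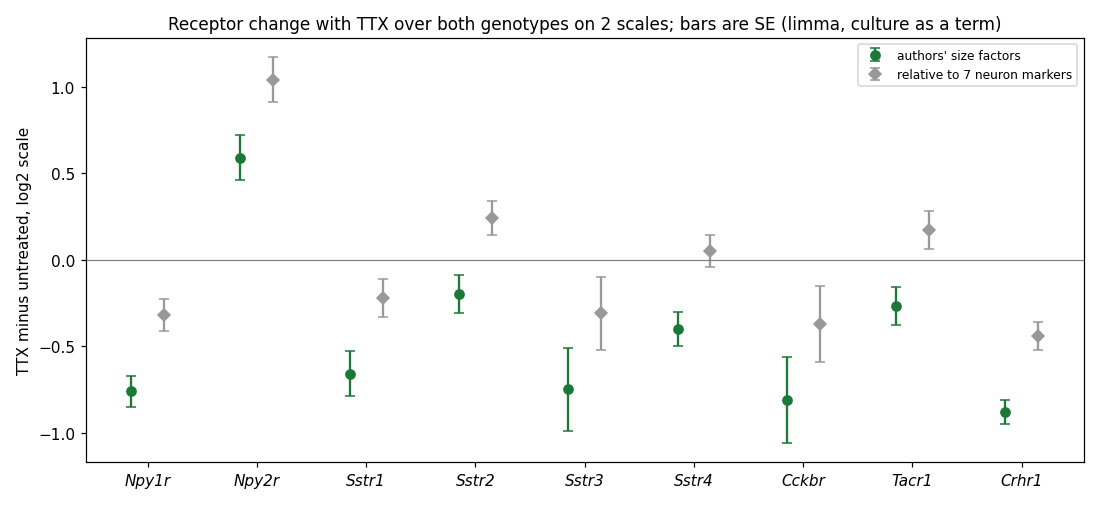
Change of the 9 tested receptors with TTX averaged over both genotypes (log2, bars are SE, limma with culture as a term), with the authors' size factors (circles) and relative to the mean of 7 neuron markers (diamonds). Crhr1, Npy1r, Sstr1, Sstr3 and Cckbr lie below 0 on both scales. Crhr1 and Npy1r are at -0.88 and -0.76 with the size factors and -0.44 and -0.32 relative to the markers.

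The genes for neuropeptide Y, somatostatin, cortistatin and the CRH-binding protein fell with TTX, in the fit with culture as a term. Among all genes tested, 7.54% fell in that fit. Of the 6 ligand and binding-protein genes that passed the filter, all 6 were lower over both genotypes. Their median log2 change was -1.79, against 0.02 over all genes tested, of which 44.5% were lower. Sst, the somatostatin gene, had 1222, 820 and 783 read equivalents in knockdown with TTX, against 2714, 1935 and 2652 in knockdown untreated, and 287, 445 and 418 in wild-type with TTX, against 1472, 1108 and 1862 in wild-type untreated. The groups did not overlap in either genotype (lower, as 4.56% of genes in knockdown and 6.52% in wild-type). The averaged change of -1.66 passed in both fits (SE 0.18 and adjusted p = 0.00584 for groups alone, 0.00495 with culture as a term).

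Npy, the neuropeptide Y gene, had 37.0, 44.8 and 26.2 read equivalents in knockdown with TTX, against 268, 198 and 105 in knockdown untreated, and 18.4, 14.0 and 87.8 in wild-type with TTX, against 131, 105 and 271 in wild-type untreated. Its change was -2.35 (SE 0.19, adjusted p = 0.00481 with culture as a term, 0.0659 for groups alone). Cort, which encodes cortistatin, another ligand of the somatostatin receptors, changed by -1.92 (SE 0.35, adjusted p = 0.0211 with culture as a term, 0.122 for groups alone). Cck, the cholecystokinin gene, gave -0.06 (95% interval -0.39 to 0.27 for groups alone), and Tac1, the substance P precursor, -0.55 (SE 0.23, adjusted p = 0.174 with culture as a term).

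Crhbp encodes the CRH-binding protein, which holds CRH away from its receptors. It had 3.32, 0.915 and 3.02 read equivalents in knockdown with TTX, against 60.3, 23.6 and 35.1 in knockdown untreated, and 0, 0.877 and 2.67 in wild-type with TTX, against 12.8, 14.7 and 28.8 in wild-type untreated. Its averaged change on the log2(level + 1) scale was -3.42 (SE 0.37, adjusted p = 0.00584 for groups alone), a value that depends on the added 1 since the TTX levels were so low. Crh itself was below the filter, at 0 to 8.22 read equivalents with TTX and 2.93 to 9.85 untreated over both genotypes, and Ucn, the urocortin gene, was at most 1.83 in any library. Crhbp and Crhr1 were both lower with TTX in all 6 cultures.

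**Figure D4:**
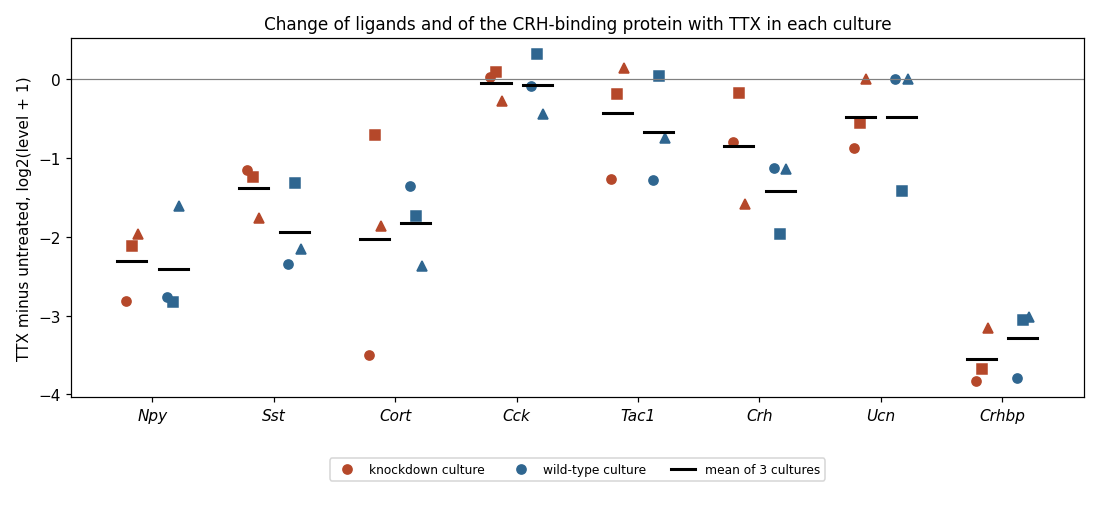
Change of the ligand genes and of Crhbp with TTX in each of 3 knockdown and 3 wild-type cultures (TTX minus untreated, log2(level + 1)), with the mean of 3 as a black bar. Npy, Sst, Cort and Crhbp are below 0 in all 6 cultures, as is Crh, which was below the filter, while Cck lies between -0.44 and 0.32.

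Downstream of the receptors, 36 of 39 listed G protein subunits, adenylyl cyclases, phospholipases, arrestins, receptor kinases and GIRK channels were in the table and 35 were tested. Over both genotypes 26 of the 35 were lower with TTX, with a median log2 change of -0.15, against 44.5% and 0.02 over all genes tested. The 7 neuron markers had a median of -0.36 in the same comparison. Whether the 35 genes changed beyond those markers was not tested. In the fit with culture as a term 8 fell: Kcnj3 and Kcnj9, which encode GIRK channel subunits (-0.59 and -0.52), the Gi/o family members Gnai1 and Gnaz (-0.34 and -0.25), Gng7 (-0.31), Plcb1 (-0.44), Adcy8 (-0.73) and Arrb1 (-0.29). None rose, and groups alone called 0 of the 35, with 8 lower and 0 higher at an unadjusted p under 0.05. Over all genes tested 7.54% fell with culture as a term, and 6.35% were lower at an unadjusted p under 0.05 for groups alone.

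The knockdown was compared with wild-type for the same receptors. None of the 9 was called, in either condition or over both, where limma on groups alone called 0 of 12073 genes with TTX (0.00%), 0 untreated (0.00%) and 3 over both (0.0248%). At an unadjusted p under 0.05 over both conditions 4 receptors were higher in knockdown (8.75% of genes): Sstr1, Sstr4, Cckbr and Tacr1. That fit counts the 2 libraries of a culture as separate. With a random block for culture, 0 receptors were called as well (0.00% of genes over both conditions). Cckar, which is not among the 10, was 1.32 higher in knockdown over both conditions (SE 0.32, unadjusted p = 0.00181, adjusted p = 0.128 for groups alone, and 0.0576 and 0.711 with a random block for culture).

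Sstr1 was higher in all 3 knockdown libraries than in all 3 wild-type libraries, both with TTX and untreated (6.39% and 4.94% of genes were higher without overlap). The difference was 0.67 with TTX (SE 0.24, adjusted p = 0.594) and 0.65 untreated (SE 0.24, adjusted p = 0.783), and over both conditions it was 0.66 (SE 0.17, adjusted p = 0.141, and 0.0986 to 0.687 over the 21 settings tried). Averaged over the libraries of a culture, Sstr1 had 773, 579 and 634 read equivalents in knockdown, against 453, 468 and 346 in wild-type. The cultures did not overlap, and an exact two-sided permutation test gave p = 0.1, the smallest that 3 against 3 allow.

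The group means of Sstr1 ran from knockdown untreated (811 ± 136, SD, n = 3) down to wild-type with TTX (334 ± 111), with knockdown with TTX (513 ± 75.5) and wild-type untreated (511 ± 41.7) between them and not apart beyond their spread. The difference between genotypes in its TTX change was 0.02 (95% interval -0.75 to 0.78 for groups alone).

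Tacr1 stood higher in the 3 knockdown than in the 3 wild-type untreated libraries, by 1.16 (SE 0.38, adjusted p = 0.766), while with TTX the groups overlapped, with 0.67 (SE 0.38, adjusted p = 0.667). Sstr4 was higher in knockdown without overlap with TTX, by 0.54 (SE 0.30, adjusted p = 0.665), and by 0.53 untreated (SE 0.30, adjusted p = 0.791). Cckbr differed by 0.80 with TTX and 0.60 untreated (SE 0.43 each, adjusted p = 0.657 and 0.811). Npy2r was higher in knockdown than in wild-type in the untreated libraries, without overlap, by 1.43 (SE 0.48, adjusted p = 0.783), and not with TTX (-0.25, SE 0.48).

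Crhr1 and Npy1r were called lower with TTX, as Sstr1 was. Unlike Sstr1, they had small average differences between genotypes, with wide intervals. Averaged over both conditions the difference was 0.07 for Crhr1 (95% interval -0.50 to 0.65) and -0.02 for Npy1r (95% interval -0.64 to 0.60). Culture averages of Crhr1 were 279, 227 and 116 in knockdown and 212, 199 and 163 in wild-type, and the low value was again knockdown culture 3. Sstr2 in the same culture was at 152, against 437 and 299 in the other knockdown cultures. The summed neuron markers of knockdown culture 3 were the lowest of the knockdown cultures in both conditions, and the summed astrocyte markers the highest.

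Neuron markers also differed between genotypes. All 7 were higher in knockdown over both conditions, with a median log2 difference of 0.53. For groups alone 4 of them had an unadjusted p under 0.05 and 0 passed after adjustment. In the oligodendrocyte lineage 6 of 8 markers were lower, with a median of -1.18, and 2 were higher. Its cultures were uneven: Pdgfra had 440 and 397.5 read equivalents in knockdown culture 1, with TTX and untreated. In the other knockdown cultures Pdgfra had 7651 to 8572, against 6492 or more in wild-type. The 9 receptors had a median of 0.54 and 8 were higher, against 0.00 and 50.1% over all genes tested. Relative to the mean of the 7 neuron markers, the difference was 0.20 for Sstr1 (SE 0.18), 0.07 for Sstr4 (SE 0.16), 0.23 for Cckbr (SE 0.24), 0.45 for Tacr1 (SE 0.22), -0.39 for Crhr1 (SE 0.19) and -0.49 for Npy1r (SE 0.24). Of these, Tacr1, Crhr1 and Npy1r were about 2 SE from 0, and none passed (limma, adjusted p = 0.109, 0.114 and 0.113). These SE come from groups alone, which counts the 2 libraries of a culture as separate and so can understate the spread.

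**Figure D5:**
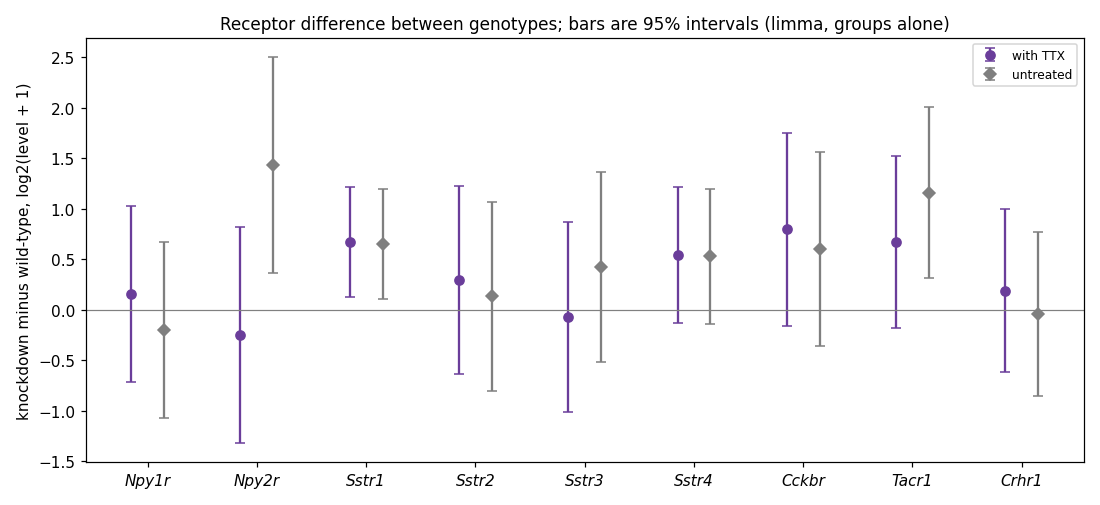
Difference between knockdown and wild-type for the 9 tested receptors, with TTX (circles) and untreated (diamonds), on the log2(level + 1) scale with 95% intervals from limma on the 4 groups. Sstr1 lies at 0.67 and 0.65 with intervals above 0 before adjustment, and Crhr1 and Npy1r lie within 0.20 of 0.

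Sst, the ligand, differed between genotypes in the same direction as Sstr1. It was 1.01 higher in knockdown over both conditions (SE 0.18, adjusted p = 0.112 for groups alone), with no overlap in either condition. Among all genes tested, 6.39% were higher in knockdown without overlap with TTX and 4.94% untreated. Npy differed by 0.24 (SE 0.45) and Crhbp by 0.89 (SE 0.37, adjusted p = 0.269).

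The authors' deposited table gives a signed z value and a p value for each gene, with no statement of adjustment. In the authors' deposited table Crhr1 had z = -1.52 and p = 0.0643 for TTX in knockdown and z = -3.76 and p = 8.63e-05 in wild-type. Npy1r in the authors' deposited table had z = -0.95 and p = 0.171 in knockdown and z = -2.94 and p = 0.00168 in wild-type. For Sstr1 the authors' deposited table lists z = -3.09 and p = 0.000995 for TTX in knockdown, and z = -1.95 and p = 0.0254 for TTX in wild-type. Between knockdown and wild-type the authors' deposited table gives Sstr1 p = 0.0263 with TTX, 0.000939 untreated and 0.00573 over both, with z of 1.94, 3.11 and 2.53. For Npy2r with TTX in wild-type the authors' deposited table gives z = 1.02 and p = 0.154. Among the other receptors the authors' deposited table has p under 0.05 for Sstr3 with TTX in knockdown (0.00336). Between genotypes the authors' deposited table has it for Tacr1 untreated (0.0425) and over both (0.00553), Sstr4 with TTX (0.0347) and over both (0.015), and Cckbr over both (0.0496). Among the 12073 genes, the authors' deposited table has p under 0.05 for 4.23% with TTX in knockdown and 5.77% with TTX in wild-type. Between genotypes the authors' deposited table has it for 9.02% with TTX, 5.2% untreated and 21.4% over both.

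The authors also deposited annotation tables of gene lists. Npy1r was named in 58 of 418 terms of the authors' deposited table for the list labelled as blocked by the hairpin, and in 67 of 1070 terms of that for genes down in wild-type. Crhr1 was named in 68 of the 1070 terms of the wild-type table and in none of the terms of the blocked list. The sources used here do not say how the lists were drawn up. The test of the difference between genotypes in the TTX change, given above, did not pass for either gene.

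Across the 12 libraries the 8 tested receptors other than Npy2r correlated with each other at a Pearson r of 0.20 to 0.94. Cckbr went with Sstr1 (r = 0.86), Sstr2 with Sstr4 (0.77) and Sstr1 with Tacr1 (0.76), while Npy2r had r of -0.30 to 0.10 with the other 8. Crhr1 and Npy1r gave the highest of these, 0.94, and Crhr1 was the third most alike gene to Npy1r, after Mblac2 (0.964) and Tarsl2 (0.947). The genes most like Crhr1 were Rnf19b (r = 0.980), Plcb1 (0.975) and Brinp1 (0.973), and those most like Sstr1 were Gabrd (0.970), Chst8 (0.967) and Sc5d (0.956). Sstr2 was most like Slc12a5 (0.969) and Sstr4 most like Syt1 (0.959), while for Cckbr it was LOC102548847 (0.956), for Tacr1 Brap (0.940), for Sstr3 Usp46 (0.885) and for Npy2r Zswim4 (0.866). These values describe 12 libraries that share groups and cultures, over genes with a mean of at least 50 read equivalents.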

How the data were processed

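Libraries were strand-specific, built from RNA without its ribosomal part and read from 1 end, per the labels. GSNAP, DESeq, DESeq2 and rn6 stand in the submitters' processing notes, without versions. The deposited signal values behave as base coverage per RefSeq transcript, scaled by a size factor. In each library 100% of the values checked were whole multiples of 1 step within 0.01, which gave that factor, and low values clustered at multiples of 42 nt, the inferred read length. Values were divided by 42, so a level is a read equivalent and not a read. Before size factors the libraries held 15108848 to 24787516 of these. The authors' deposited score is a signed z, and the authors' deposited p-value has no stated adjustment. The 3 deposited annotation tables gave gene names per term.

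Where a symbol had several entries, the one with the highest mean was used; for Crhr1 this was 1 of 4 entries with nearly equal values. Levels plus 1 were taken to log2 and fitted on the 4 groups by limma 3.58.1 (R 4.3.3; 8 residual degrees of freedom), with Benjamini-Hochberg adjustment over 12073 genes, two-sided at 0.05. Since the files hold coverage, no count model was run. For the pairing check, deviations from group means were correlated: TTX against untreated at equal number gave 0.78, 0.69 and 0.77 in knockdown and 0.44, 0.61 and 0.85 in wild-type, and knockdown against wild-type gave -0.27 to -0.01. The pairing within genotype was therefore also fitted, as a fixed term with 4 residual degrees of freedom. P-values measure the spread between these libraries, which the series calls biological triplicates. The receptors and the 11 gene lists were chosen with earlier results of these data known. Named were the receptors, their ligands, listed genes called in either fit and the genes most like each receptor, out of 3 per receptor. Levels are not compared between genes, since transcript lengths were not used here. Promoters were matched by symbol for all 10 genes. Alternatives were another pseudocount, no filter, TMM scaling, summed entries, values as deposited, the 6-library tables, blocks and left-out libraries.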

Additional observations from a re-analysis of the deposited data

How the results depend on the processing

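Directions of the larger receptor changes were mostly kept, and calls moved with how culture was handled. Changes under 1 SE for groups alone were not followed, and these are the ones most able to turn. Among them, Sstr2 over both genotypes ran from -0.41 to 0.24 with TTX over the settings, and Tacr1 in wild-type from -0.36 to 0.44. That left 37 receptor results, which gave 896 pairs of a result and a setting. Of these pairs 842 kept direction and side, 49 newly passed and 5 turned. Those that turned were Sstr3 with TTX in wild-type without wild-type culture 3 (0.05, against -0.98 at the lowest without 1 library) and, relative to the neuron markers, Sstr4 in knockdown (0.03), in wild-type (0.06) and over both (0.05), and Tacr1 over both (0.17). The cause was not tested. Calls follow for TTX in knockdown, in wild-type and over both. The replicate block as a fixed term gave 62, 384 and 1570 genes and 1, 3 and 4 receptors, against 0, 4 and 24 genes and 0 receptors for groups alone. As a random replicate block, culture gave 349, 730 and 2022 genes and 1, 4 and 7 receptors. Leaving out 1 culture with that fixed term gave 0 to 180, 10 to 58 and 141 to 1576 genes and 0 to 1, 0 to 2 and 2 to 4 receptors. Relative to the neuron markers, with the same block, 8430, 9323 and 10431 genes and 1, 4 and 3 receptors passed, on a scale that shifts all genes. The marker scale and the left-out cultures were chosen after seeing the data. Leaving out 1 library from groups alone gave 0 to 1, 0 to 3 and 10 to 23 genes. Values as deposited gave 5 genes in knockdown and 11 in wild-type, no filter 3 and 2, and 0 genes passed in wild-type in its own 6-library table. Over both, a pseudocount of 5 gave 57 genes and TMM scaling 52. For knockdown against wild-type over both conditions, 3 genes became 15 with a replicate block by number (the numbers do not pair genotypes), 0 with a random block or relative to the neuron markers, 14 as deposited, 6 with no filter and 0 to 2 without 1 library. Within a condition, 0 genes became 9 as deposited both with TTX and untreated, 2 and 1 with no filter, and 0 to 1 without 1 library with TTX. For the difference in the TTX change, 0 became 7 as deposited. No receptor was called in these knockdown or difference fits. With 3 cultures per genotype and Npy2r and Npy5r at few reads, small changes were not detectable at this depth.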
